A study of Mus musculus with 12 samples.

Results

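The genes of 10 proteins that bind, relay or edit nucleic acid in the cytosol were examined in mouse dendritic cells (DC) with and without deletion of the TGF-beta receptor gene Tgfbr2. They were chosen by name: Ddx58, Ifih1, Dhx58, Mavs, Tmem173, Mb21d1, Zbp1, Aim2, Eif2ak2 and Adar, each through a probe set whose platform annotation held 1 gene symbol. Of the 10 genes, 9 were measured in this way, with 1 probe set each, out of 14860 genes with such a probe set and 23332 probe sets in the table. The annotation gave Tmem173 as Sting1 and Mb21d1 as Cgas, and both are called here by the older symbol. The probe set that held Eif2ak2, the gene of the RNA-activated kinase PKR, also carried other gene symbols, and Eif2ak2 was not analysed here.

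The mice were C57BL/6, and 12 Mouse Exon 1.0 ST arrays of Affymetrix were used, 3 for each of 4 groups. The groups were splenic CD11c+ DC of Cre- control mice, splenic CD11c+ DC of Cre+ mice with the Tgfbr2 deletion, and CD11c+CD103+ DC of the mesenteric lymph nodes (MLN) of Cre- control and of Cre+ deletion mice. Splenic cells were separated magnetically and MLN cells were flow-sorted, each MLN sample from a pool of 4 mice, and the cells received no treatment before RNA was taken. Cre- donors were described as healthy. Age, sex, the number of mice per splenic sample, the promoter that drives Cre and the deleted exons were not stated in the labels. In 1 field, the cell type, MLN samples titled Cre+ were said to come from Cre- mice; the Cre+ of their title, source and genotype was used.

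Cells detect foreign or misplaced nucleic acid in the cytosol through separate protein families. The helicases RIG-I (Ddx58) and MDA5 (Ifih1) bind double-stranded RNA and signal through the mitochondrial adaptor MAVS, and LGP2 (Dhx58) modulates both. The enzyme cGAS (Mb21d1) answers to double-stranded DNA by making a cyclic dinucleotide that activates STING (Tmem173), and both routes lead to type I interferon. AIM2 assembles an inflammasome on DNA, ZBP1 binds Z-form nucleic acid and can start necroptosis, and ADAR edits adenosine in self RNA so that it is not sensed as foreign. Several of these genes are themselves interferon-inducible, and DC are a cell type known for this response.

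The start regions of 3 genes are shown because they hold the letters of interferon-response elements, the DNA motifs through which interferon-inducible genes are known to be switched on. Windows of 300 bases, from 250 bases before to 50 after the transcription start, were taken from RefSeq on the mouse assembly GRCm38.p6 and are printed in the direction of transcription. Windows were at hand for 6 of the 9 measured genes, 8 windows in all. Capitals mark matches to GAAA, any 2 bases, GAAA, the core of an interferon-stimulated response element, to GAAANGAAA, the same repeat with 1 base between, or to TTCNNNGAA, the core of a gamma-activated site, each searched on both strands.
Ddx58 (chr4:40239776-40240075, minus strand): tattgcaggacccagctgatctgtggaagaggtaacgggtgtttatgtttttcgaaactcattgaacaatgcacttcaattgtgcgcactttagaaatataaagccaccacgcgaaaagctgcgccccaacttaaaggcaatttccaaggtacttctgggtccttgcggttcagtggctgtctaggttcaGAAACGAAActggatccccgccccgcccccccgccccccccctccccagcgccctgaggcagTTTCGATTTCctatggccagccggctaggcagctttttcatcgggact
Ifih1 (chr2:62646206-62646505, minus strand): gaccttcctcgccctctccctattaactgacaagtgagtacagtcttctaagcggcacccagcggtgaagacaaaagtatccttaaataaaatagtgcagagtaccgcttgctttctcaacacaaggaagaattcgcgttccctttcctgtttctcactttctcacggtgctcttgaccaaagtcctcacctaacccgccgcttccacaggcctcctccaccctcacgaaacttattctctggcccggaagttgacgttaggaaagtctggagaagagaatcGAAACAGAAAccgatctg
Adar, start 3 of 3 (chr3:89730468-89730767, plus strand): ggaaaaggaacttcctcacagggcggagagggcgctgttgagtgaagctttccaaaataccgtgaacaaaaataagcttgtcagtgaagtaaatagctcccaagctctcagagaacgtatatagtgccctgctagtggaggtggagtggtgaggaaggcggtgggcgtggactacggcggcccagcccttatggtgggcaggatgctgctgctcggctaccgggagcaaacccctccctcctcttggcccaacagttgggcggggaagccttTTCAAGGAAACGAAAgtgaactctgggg
In Ddx58 the capitals are GAAACGAAA, which began 60 bases before the start, and TTTCGATTTC, the response element core read on the opposite strand, from base 2 to base 11 after it. Ifih1 held the response element core as GAAACAGAAA from base 32 to base 41 after the start. Start 3 of Adar held TTCAAGGAA from base 22 to base 30 and GAAACGAAA from base 28 to base 36, with 3 bases in common. None of the 3 motifs was found in the windows of Mavs, Mb21d1 and Aim2 or in the other 2 Adar windows. Over 32851 windows of 27025 genes, 3.44% held the response element core, 3.17% held GAAANGAAA and 8.30% held TTCNNNGAA. A match is a description of these letters and no measurement of binding.

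The lowest correlation between 2 arrays of the same group, taken across probe sets, was 0.984 for spleen and 0.982 for MLN. Median values ran from 7.03 to 7.08 for splenic arrays and from 6.74 to 6.89 for MLN arrays, and the spread of values was wider in the former (SD 2.37 to 2.42) than in the latter (SD 1.80 to 1.91). Tgfbr2 itself measured 10.94 ± 0.02 in splenic Cre- and 10.70 ± 0.03 in splenic Cre+ DC, and 9.58 ± 0.08 and 9.46 ± 0.08 in MLN (SD, n = 3 each). The probes of this gene-level value may lie outside the deleted part, so it does not check the labels. Of the DC markers, Flt3, Zbtb46, H2-Ab1 and Cd74 were measured. H2-Ab1, a class II antigen-presenting chain, stood at 13.45 ± 0.03 in splenic Cre- and 12.58 ± 0.05 in MLN Cre- DC. In the same order Cd74 measured 13.40 ± 0.01 and 13.22 ± 0.06, and Flt3 11.35 ± 0.13 and 10.24 ± 0.37. Zbtb46 measured 7.98 ± 0.14 and 7.53 ± 0.28. Summed as linear values, these 4 markers reached a log2 level of 14.57 to 14.63 on splenic Cre- arrays. The 7 measured B cell markers reached 14.59 to 14.86 there. On MLN Cre- arrays the DC sum lay between 13.98 and 14.12 and the B cell sum between 13.90 and 14.04. The share of B cells in the isolates was not tested. Itgae, which encodes the CD103 of the MLN gate, ranged from 6.68 to 7.78 on splenic and from 7.55 to 8.20 on MLN arrays. RMA, the averaging method behind these values, gives no detection call, so no gene could be listed as absent. The Y-linked gene Eif2s3y measured 9.91 ± 0.14 in splenic Cre- and 3.17 ± 0.14 in splenic Cre+ DC. The MLN Cre- pools stood at 7.42 ± 0.999 and the Cre+ pools at 7.60 ± 0.587 (SD, n = 3 each). Kdm5d, also Y-linked, measured 8.23 ± 0.19 in splenic Cre- and 4.31 ± 0.16 in splenic Cre+ DC. In spleen the genotype cannot be told apart from this Y-linked difference, or from a difference in sex. All 9 measured sensor genes lie on autosomes, which does not separate their values from such a difference.

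In splenic DC, 2 of the 9 sensor genes were higher in Cre+ than in Cre- mice past the threshold. Zbp1 was 2.18-fold higher and Dhx58 1.48-fold higher, and no sensor gene was lower past it. The threshold was an adjusted p under 0.05 in limma's moderated test, which was fitted to all 12 arrays and adjusted by the Benjamini-Hochberg method over 23332 probe sets. Of all probe sets, 1.24% were called higher and 2.17% were called in either direction. The difference was positive for 8 of the 9 genes against 52.9% of all probe sets, and for 6 genes every Cre+ array lay above every Cre- array against 12.4% of all probe sets. The median difference of the 9 genes was 0.33 on the log2 scale, and that of all probe sets was 0.01. In RNA from a bulk of cells, fewer cells of a type and less RNA per cell cannot be told apart.

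**Figure D1:**
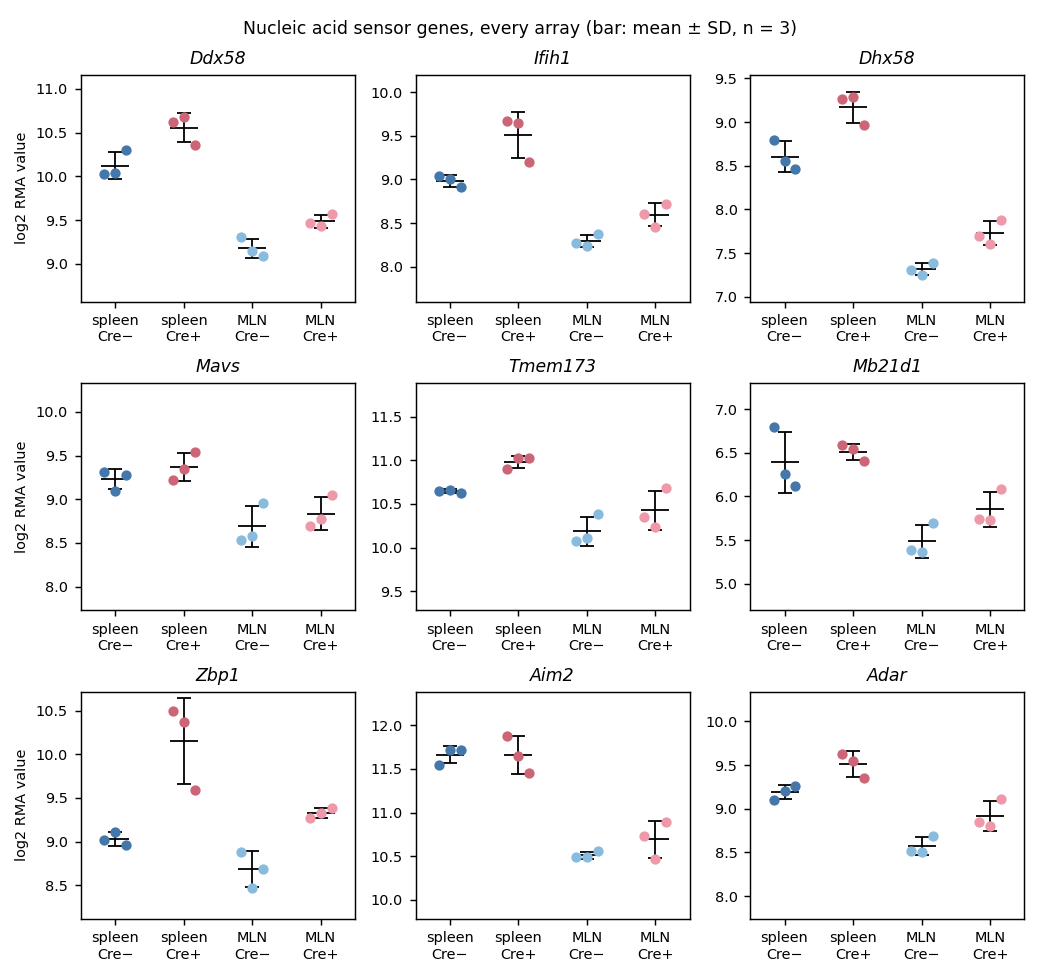
Values of the 9 measured sensor genes on every array. The vertical axis is the log2 RMA value, on the same span of values in every panel, points are arrays and bars are the mean ± SD of 3 arrays in each group. The 3 splenic Cre+ arrays of Zbp1, at 10.49, 10.37 and 9.59, lie above its Cre- arrays at 8.96 to 9.11, whereas the arrays of Aim2 overlap between genotypes in both tissues.

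Among the RNA sensors, Dhx58, the gene of LGP2, measured 8.80, 8.56 and 8.46 in splenic Cre- DC and 9.26, 9.29 and 8.97 in Cre+ DC. The lowest Cre+ array lay above the highest Cre- array. The difference was 0.57 on the log2 scale (SE 0.121, 95% interval 0.30 to 0.83, limma adjusted p = 0.0420). In MLN its arrays stood at 7.31, 7.25 and 7.39 in Cre- and at 7.70, 7.61 and 7.88 in Cre+ mice, again with no overlap, and the difference of 0.41 (SE 0.121, limma adjusted p = 0.296) did not pass. The 95% intervals are for each gene alone and are not widened for the number of genes.

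Ifih1, the gene of MDA5, measured 9.04, 9.01 and 8.91 in splenic Cre- and 9.67, 9.65 and 9.20 in splenic Cre+ DC. All 3 Cre+ arrays were above the Cre- arrays, replicate 3 by the least. The difference of 0.52 (SE 0.126, 95% interval 0.24 to 0.80, limma adjusted p = 0.0648) did not pass the threshold. In MLN the arrays were at 8.27, 8.24 and 8.37 in Cre- and 8.61, 8.46 and 8.72 in Cre+ mice. They did not overlap, and the difference was 0.30 (SE 0.126, limma adjusted p = 0.402).

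Ddx58, the gene of RIG-I, measured 10.03, 10.04 and 10.30 in splenic Cre- and 10.62, 10.68 and 10.36 in splenic Cre+ DC. The groups were separated by 0.07 between replicate 3 of each, the highest Cre- and the lowest Cre+ value. Its difference was 0.43 (SE 0.111, 95% interval 0.19 to 0.68, limma adjusted p = 0.0772). In MLN the arrays stood at 9.30, 9.14 and 9.09 in Cre- and 9.46, 9.43 and 9.57 in Cre+ mice, with no overlap and a difference of 0.31 (SE 0.111, limma adjusted p = 0.371). Of the 3 helicase genes, all 3 were higher in Cre+ with no overlap of arrays in both tissues, and 1 passed the test, in spleen.

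Mavs, the gene of the adaptor that the RNA helicases share, measured 9.31, 9.10 and 9.28 in splenic Cre- and 9.22, 9.35 and 9.54 in splenic Cre+ DC. The groups overlapped, and the difference of 0.14 had a 95% interval from -0.18 to 0.46 (limma adjusted p = 0.703). In MLN the arrays at 8.53, 8.58 and 8.96 in Cre- and 8.69, 8.77 and 9.05 in Cre+ mice overlapped as well. The MLN difference was 0.15 as deposited, with an interval from -0.17 to 0.46, and -0.01 after quantile normalization over all arrays.

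Neither gene of the DNA-sensing pair passed the test in spleen. Tmem173, the gene of STING, measured 10.65, 10.66 and 10.62 in splenic Cre- and 10.90, 11.02 and 11.02 in splenic Cre+ DC. These were close replicates with no overlap, and the difference of 0.33 (SE 0.119, 95% interval 0.07 to 0.60, limma adjusted p = 0.190) did not pass. In MLN, Tmem173 stood at 10.07, 10.11 and 10.38 in Cre- and 10.35, 10.24 and 10.68 in Cre+ mice, where the groups overlapped and the difference was 0.24 (limma adjusted p = 0.450). Mb21d1, the gene of cGAS, measured 6.79, 6.26 and 6.12 in splenic Cre- and 6.59, 6.54 and 6.41 in splenic Cre+ DC. The first Cre- array was the highest of the 6, and the difference of 0.12 had a 95% interval from -0.26 to 0.50 (limma adjusted p = 0.797). In MLN, Mb21d1 stood at 5.39, 5.36 and 5.70 in Cre- and 5.74, 5.73 and 6.08 in Cre+ mice, which did not overlap, with a difference of 0.37 (limma adjusted p = 0.433).

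Aim2, the gene of the DNA-bound inflammasome sensor, was the only one of the 9 whose mean was not higher in splenic Cre+ DC as deposited, and after a shift of arrays to 1 median its difference was 0.0047. Its arrays stood at 11.55, 11.72 and 11.72 in Cre- and at 11.88, 11.65 and 11.45 in Cre+ mice. The Cre+ arrays lay on both sides of the Cre- arrays. The difference was -0.0016 (SE 0.129, limma adjusted p = 0.998), and its 95% interval ran from -0.29 to 0.28. In MLN it measured 10.49, 10.49 and 10.56 in Cre- and 10.73, 10.47 and 10.89 in Cre+ mice, with overlap and a difference of 0.19 (limma adjusted p = 0.559).

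Zbp1, the gene of the Z-form nucleic acid sensor, had the largest difference of the 9 in both tissues. It measured 9.02, 9.11 and 8.96 in splenic Cre- and 10.49, 10.37 and 9.59 in splenic Cre+ DC. All Cre+ arrays were higher, and replicate 3 lay well below the other 2. The difference was 1.12 (SE 0.201, 95% interval 0.68 to 1.57, limma adjusted p = 0.0215), a fold of 2.18 with an interval from 1.60 to 2.96. In MLN the arrays stood at 8.88, 8.47 and 8.69 in Cre- and at 9.27, 9.33 and 9.38 in Cre+ mice. They did not overlap, and the difference of 0.64 (SE 0.201, 95% interval 0.20 to 1.09, limma adjusted p = 0.327) did not pass.

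Adar, the gene of the RNA-editing enzyme, measured 9.10, 9.20 and 9.26 in splenic Cre- and 9.63, 9.55 and 9.35 in splenic Cre+ DC. In MLN it measured 8.52, 8.51 and 8.69 in Cre- and 8.85, 8.80 and 9.11 in Cre+ mice. The genotypes did not overlap in either tissue. The differences were 0.32 in spleen (SE 0.110, limma adjusted p = 0.174) and 0.34 in MLN (SE 0.110, limma adjusted p = 0.328), and neither passed.

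**Figure D2:**
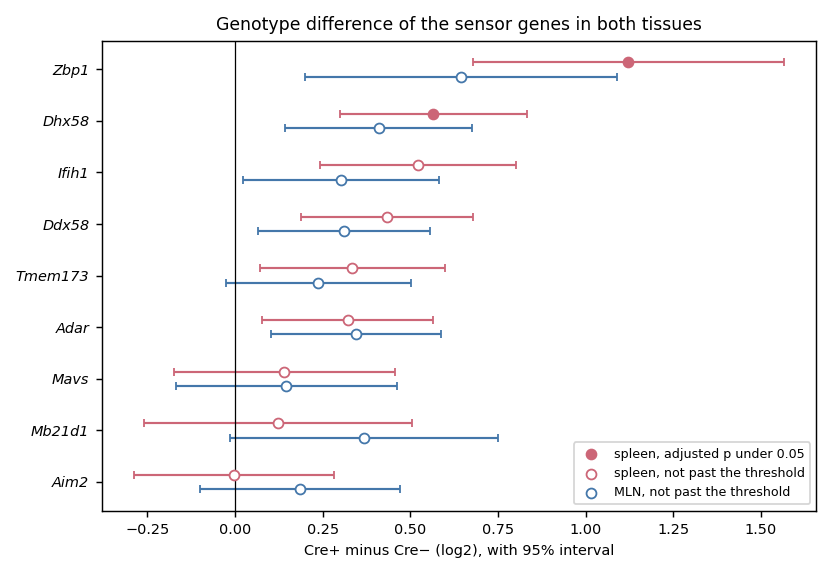
Cre+ minus Cre- difference of each sensor gene on the log2 scale, with its 95% interval, in spleen and MLN, ordered by the spleen difference. Filled points passed an adjusted p under 0.05 in limma. Zbp1 at 1.12 and Dhx58 at 0.57 in spleen are the filled points, and 17 of the 18 differences are above 0.

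The calls in spleen rested on few arrays. Without splenic Cre- replicate 1 or 2 the adjusted p of Zbp1 was 0.0707 or 0.0551, and without splenic Cre+ replicate 1 or 2 it was 0.0571 or 0.0871, each with a difference of 0.95 or more. Dhx58 stayed under 0.05 in 3 of 12 fits that left out 1 array, those without splenic Cre- replicate 1 (limma adjusted p = 0.0468), splenic Cre+ replicate 3 (0.0299) and MLN Cre+ replicate 3 (0.0454). In the other 9 fits its adjusted p ran from 0.0508 to 0.159, which included each fit without an MLN Cre- array. Splenic Cre+ replicate 3 was the lowest array of its group for 7 of the 9 genes. Without it the differences of Zbp1 and Ifih1 were 1.40 (limma adjusted p = 0.00166) and 0.67 (limma adjusted p = 0.0161), that of Ddx58 had an adjusted p of 0.0490, and 4 genes were called higher, as were 0.93% of all probe sets. With the 6 splenic arrays alone, the adjusted p was 0.131 for Zbp1 and 0.161 for Dhx58 and no gene was called. With arrays weighted by quality, 6 genes were called higher, but so were 6.79% of all probe sets. With probe sets of 1 symbol alone, 4 were called, Zbp1, Dhx58, Ifih1 and Ddx58, against 1.98% of the probe sets tested. Leaving out the probe sets assigned to the X and Y chromosomes was an alternative chosen after seeing the data. Both genes stayed called (limma adjusted p = 0.0224 and 0.0427). The step leaves the differences of the sensor genes as they were, so it does not check the Y-linked difference between the splenic groups.

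**Figure D3:**
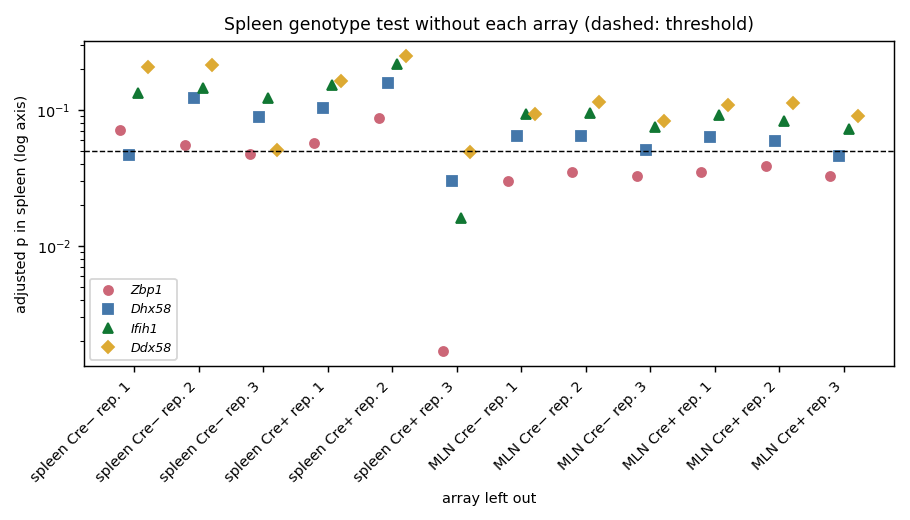
Adjusted p of the splenic genotype test for Zbp1, Dhx58, Ifih1 and Ddx58 when 1 of the 12 arrays was left out. The vertical axis is logarithmic, each column is the array left out, and the dashed line is the threshold of 0.05. Zbp1 lies under the line in 8 of 12 columns and Dhx58 in 3, and all 4 genes lie under it only without splenic Cre+ replicate 3.

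Markers of other cells moved with genotype in the same splenic arrays. Of 10 neutrophil markers, 7 were called higher in Cre+ DC, and the log2 of their summed linear level was 12.08 to 12.28 in Cre- and 13.38 to 14.46 in Cre+ arrays. Of 5 measured monocyte markers, 2 were called higher, with sums of 12.06 to 12.07 and 12.72 to 13.08. Of 7 measured markers of plasmacytoid DC, the DC type known for interferon production, 4 were called lower, with sums of 13.72 to 13.92 and 13.30 to 13.49. Of 10 macrophage markers, 3 were called lower, with sums of 14.37 to 14.71 and 14.02 to 14.19. None of the measured markers of conventional DC (4 genes), B cells (7), T cells (6) or NK cells (5) was called. The part of these markers in the sensor gene differences was not tested.

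In MLN CD103+ DC as deposited, all 9 sensor genes had a positive difference, against 66.7% of all probe sets, and none passed the threshold. By limma 5 of the 9 had an unadjusted p under 0.05, as had 11.9% of all probe sets. With array weights 2 were called higher, Zbp1 (limma adjusted p = 0.0381) and Dhx58 (limma adjusted p = 0.0470), against 3.71% of all probe sets. In the main fit 0.0729% of all probe sets were called higher and 0.0857% in either direction. Arrays did not overlap, with Cre+ higher, for Ddx58, Ifih1, Dhx58, Mb21d1, Zbp1 and Adar, 6 of 9 genes, against 13.4% of all probe sets. The median difference was 0.31, and that of all probe sets was 0.08. After quantile normalization over all arrays the median of all probe sets was -0.01, and the difference of Mavs was -0.01. Group means then lay closer together than as deposited for all sensor genes but Mb21d1 (5.31 in Cre- and 5.71 in Cre+). They were 9.79 and 9.95 for Ddx58, 8.84 and 8.99 for Ifih1 and 11.09 and 11.15 for Aim2. MLN Cre+ replicate 3 was the highest array of its group for all 9 genes as deposited and for 6 after quantile normalization, and its array median of 6.89 was the highest of the 6. In the same arrays, 1 of 10 macrophage markers and 1 of 5 monocyte markers were called higher in Cre+, with summed levels of 10.45 to 10.91 against 11.07 to 11.33 and of 9.18 to 9.33 against 9.72 to 10.03. The neutrophil sum was 9.25 to 9.33 in Cre- and 9.64 to 9.90 in Cre+, and that of 5 NK cell markers 10.73 to 11.30 and 11.74 to 11.83. None of the neutrophil or NK cell markers was called in MLN. Of the former, S100a9 (5.90 in Cre-, 5.89 in Cre+) and Camp (5.60 and 5.52) had no higher mean in Cre+. The part of these markers in the differences was not tested.

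Whether the genotype difference itself differed between tissues was tested as the MLN difference minus the spleen difference. None of the 9 genes was called, and none had an unadjusted p under 0.05 in limma. Of all probe sets, 0.163% were called and 12.2% had an unadjusted p under 0.05. For Zbp1 the difference of differences was -0.48 (SE 0.284, 95% interval -1.10 to 0.15, limma adjusted p = 0.529). For Mb21d1 it was 0.24 (SE 0.245, limma adjusted p = 0.723), and the other 7 lay between -0.22 for Ifih1 and 0.19 for Aim2. The calls in spleen are thus not shown to be particular to that tissue. The signs of the smallest values were not stable: those of Mavs, at 0.01, and Adar, at 0.02, turned negative under quantile normalization and under a shift of arrays to 1 median.

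Levels between tissues depended on the scaling, and the value distributions of the 2 tissues differed. The cells differed too, CD11c+ in spleen and CD11c+CD103+ in MLN. In Cre- arrays as deposited, macrophage marker sums were 14.37 to 14.71 in spleen and 10.45 to 10.91 in MLN. Those of plasmacytoid DC were 13.72 to 13.92 and 11.88 to 12.04. Lower in MLN, too, were the sums of neutrophil (12.08 to 12.28 and 9.25 to 9.33), monocyte (12.06 to 12.07 and 9.18 to 9.33), NK cell (12.62 to 12.97 and 10.73 to 11.30) and B cell markers (14.59 to 14.86 and 13.90 to 14.04). The T cell sum, 12.61 to 12.89 and 12.96 to 13.09, and Itgae went the other way. T cell markers were mixed, with Cd3e at 9.84 in spleen and 11.32 in MLN and Cd4 at 11.12 and 10.34. The part of these markers in the tissue differences was not tested. As deposited, all 9 genes were lower in MLN than in splenic Cre- DC with no overlap of arrays, as were 49.7% of all probe sets. Of the 9, 8 were called lower, as were 49% of all probe sets, and 26.3% of all probe sets were called higher. Dhx58 had the largest difference, -1.29, and Zbp1 the smallest, -0.35 (limma adjusted p = 0.138). In Cre+ mice all 9 were called lower in MLN, from -1.44 for Dhx58 to -0.53 for Mavs, against 45.2% of all probe sets called lower and 26.5% called higher, and the arrays of all 9 did not overlap, against 45.8%. The median of all probe sets was itself -0.36 in Cre- and -0.24 in Cre+ mice.

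After quantile normalization over all 12 arrays, the median of all probe sets was 0.03 in both comparisons, and the sensor genes divided. Dhx58 at -0.56 (limma adjusted p = 0.000533) and Mb21d1 at -1.07 (0.000212) were still called lower in MLN of Cre- mice. Tmem173 at 0.66 (5.08e-05), Zbp1 at 0.66 (0.0149), Mavs at 0.49 (0.00174) and Adar at 0.40 (0.00231) were called higher there, opposite to the deposited scale. Ddx58 at 0.17, Ifih1 at 0.27 and Aim2 at -0.09 were not called. Of all probe sets, 29.7% were called lower and 34.4% higher under this scaling. In Cre+ mice, Dhx58 at -0.70 and Mb21d1 at -0.78 were called lower and Tmem173 at 0.49, Mavs at 0.39 and Adar at 0.36 higher, against 27.4% lower and 30.6% higher over all probe sets, and 4 genes were not called. A shift of every array to 1 median kept all 9 differences negative in both genotypes, with 6 called lower in Cre- mice (39.7% of all probe sets) and 9 in Cre+ mice (38.5%). Dhx58 and Mb21d1 were called lower in MLN under all 3 scalings in both genotypes, and for the other 7 genes at least 1 call depended on the scaling. Mb21d1 was dim in MLN, where its arrays stood at 5.36 to 6.08 as deposited. All of them lay under 6.35, the 40th percentile of the mean values of probe sets.

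**Figure D4:**
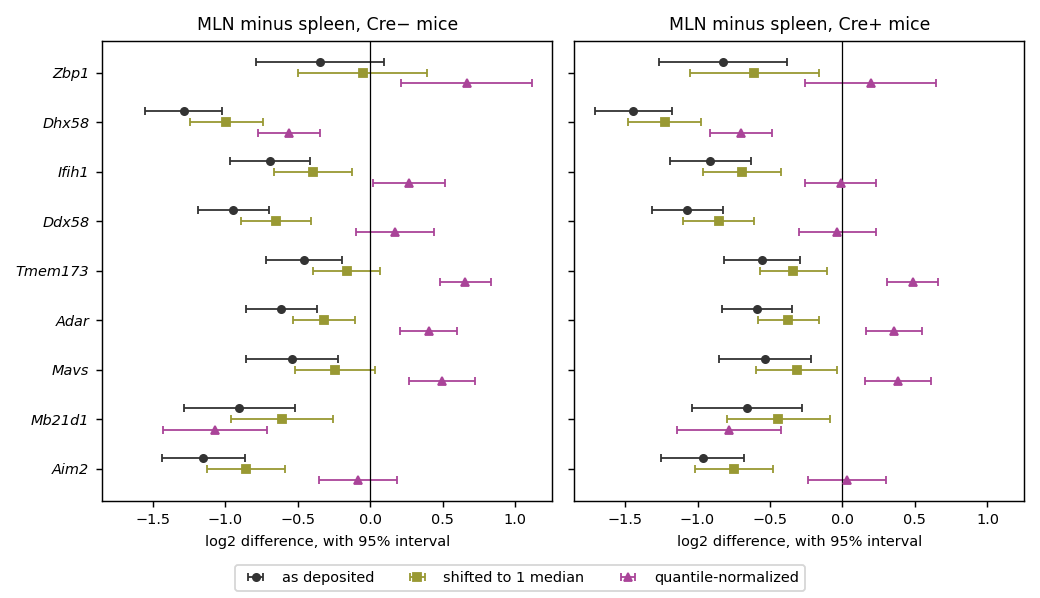
MLN minus spleen difference of each sensor gene on the log2 scale with its 95% interval, for Cre- mice on the left and Cre+ mice on the right, as deposited, after a shift to 1 median and after quantile normalization. As deposited all points are below 0. After quantile normalization Dhx58 and Mb21d1 stay below 0, and Tmem173, Mavs and Adar lie above it in both genotypes.

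Within a gene, the order of the 4 groups as deposited was splenic Cre+, splenic Cre-, MLN Cre+ and MLN Cre- for 7 of the 9 genes. In Aim2 both splenic groups stood at 11.66, and in Zbp1 MLN Cre+ DC (9.33 ± 0.06) stood above splenic Cre- DC (9.03 ± 0.08; SD, n = 3 each). The position of the MLN groups in this order changed with the scaling, as described for the tissue comparison.

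Other genes of these pathways were described from 7 lists of 83 genes, of which 66 were measured through a probe set of 1 symbol. In spleen, 3 of the 66 were called higher in Cre+, against 1.24% of all probe sets, and none lower. The difference was positive for 45, against 52.9% of all probe sets. Arrays did not overlap for 17 with Cre+ higher and for 3 with Cre+ lower, against 12.4% and 9.37% of all probe sets, and 16 had an unadjusted p under 0.05 in limma, against 16.2%. The median was 0.09, beside 0.01 over all probe sets. In MLN none was called, and 60 differences were positive, against 66.7% of all probe sets. There 17 had an unadjusted p under 0.05 in limma, against 11.9%, and arrays did not overlap for 21, all with Cre+ higher, against 13.4%. The MLN median was 0.16, beside 0.08 over all probe sets. None of the 66 was called for the difference of differences, MLN minus spleen. For it 9 had an unadjusted p under 0.05 in limma, a share near the 12.2% of all probe sets.

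Of 3 measured PYHIN genes, the family of DNA-binding interferon-inducible proteins that includes Aim2, Ifi205 was called higher in spleen. It measured 10.78, 10.62 and 10.96 in splenic Cre- and 11.85, 11.78 and 11.43 in splenic Cre+ DC. The groups were well apart, and the difference was 0.90 (SE 0.140, limma adjusted p = 0.0135). In MLN Ifi205 differed by 0.70 (limma adjusted p = 0.124). Ifi203, another member, differed by 0.65 in spleen (limma adjusted p = 0.0622) and by 0.44 in MLN (limma adjusted p = 0.358). The spleen call of Ifi205 ended without splenic Cre+ replicate 2 (limma adjusted p = 0.0595).

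Of 9 inflammasome and cell death partners, Casp4, which encodes the caspase that binds cytosolic lipopolysaccharide, was called higher in spleen. Its arrays stood at 8.59, 8.59 and 8.76 in splenic Cre- and 9.65, 9.64 and 9.44 in splenic Cre+ DC. They did not overlap, and the difference was 0.93 (SE 0.161, limma adjusted p = 0.0188). It was not called without splenic Cre- replicate 1 (limma adjusted p = 0.0667) or 2 (0.0620) or splenic Cre+ replicate 1 (0.0557) or 2 (0.0748). Pycard, the adaptor of the inflammasome, differed by 0.40 in spleen (limma adjusted p = 0.107). In MLN, Casp4 differed by 0.73 (limma adjusted p = 0.170) and Mlkl, the gene of the necroptosis effector, by 0.60 (limma adjusted p = 0.239).

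Of 6 measured cytokine genes that the sensors induce, Tnf was called higher in spleen. It measured 11.04, 11.13 and 11.19 in splenic Cre- and 12.07, 12.03 and 11.63 in splenic Cre+ DC. All Cre+ arrays were higher, replicate 3 by the least, and the difference was 0.79 (SE 0.124, limma adjusted p = 0.0135). Its call ended without splenic Cre+ replicate 2 (limma adjusted p = 0.0599). Cxcl10, the gene of an interferon-inducible chemokine, differed by 0.68 in spleen (limma adjusted p = 0.103) and by 0.89 in MLN (limma adjusted p = 0.166), and Tnf by 0.33 in MLN (limma adjusted p = 0.377). Ifnb1, the gene of interferon-beta and named after its values were seen, differed by 0.46 in spleen (limma adjusted p = 0.199) and by -0.36 in MLN (limma adjusted p = 0.422). Its difference of differences was -0.82 (SE 0.235, limma adjusted p = 0.206).

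None of 11 measured adaptors and kinases of RNA sensing was called in either tissue. Irf7, the interferon-inducible transcription factor downstream of the sensors, differed by 0.53 in spleen (limma adjusted p = 0.139) and by 0.67 in MLN (limma adjusted p = 0.216). Tank, a TRAF-binding adaptor, differed by 0.24 in spleen, and Fadd, a death-domain adaptor, by 0.31 in MLN. None of 15 measured cofactors and regulators was called, with Ddx60, a helicase related to the RNA sensors, at 0.52 (limma adjusted p = 0.129) and Pcbp2, a regulator of MAVS, at 0.19 in spleen. In MLN the ubiquitin ligase gene Itch stood at 0.20 and the deubiquitinase gene Cyld at 0.28. Both lists had 2 genes or fewer with an unadjusted p under 0.05 in spleen, where 16.2% of all probe sets had one.

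None of 14 measured nucleases and regulators of DNA sensing was called. Trex1, the cytosolic DNA exonuclease, differed by 0.45 in spleen (limma adjusted p = 0.0597) and by 0.29 in MLN (limma adjusted p = 0.373). Rnaseh2b, a subunit of the enzyme that removes RNA from RNA-DNA hybrids, differed by 0.30 in spleen, and Samhd1, the deoxynucleotide hydrolase, by 0.37 in MLN (limma adjusted p = 0.253). None of 8 measured partners of PKR and of RNA editing was called. Ppp1r15a, a phosphatase subunit that reverses eIF2 phosphorylation, stood at 0.21 and the stress transcription factor gene Ddit3 at 0.16 in spleen, and in MLN Ddit3 stood at 0.21 and the eIF2 kinase gene Eif2ak4 at 0.16.

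Between tissues, 56 of the 66 genes were called lower and 5 higher in MLN of Cre- mice as deposited, against 49% and 26.3% of all probe sets. After the shift to 1 median 47 were lower and 5 higher (39.7% and 35.5% of all probe sets), and after quantile normalization 26 lower and 16 higher (29.7% and 34.4%). In Cre+ mice 55 were called lower and 4 higher as deposited (45.2% and 26.5%), 49 lower and 5 higher after the shift (38.5% and 34.6%), and 25 lower and 15 higher after quantile normalization (27.4% and 30.6%).

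The genes most like the 3 sensor genes of smallest unadjusted p in spleen were sought by Pearson's r over the 12 arrays after each tissue's mean was subtracted. For Zbp1 they were Parp14 (r = 0.98, Spearman's rho 0.95), Brip1 (r = 0.97, rho 0.98) and Ms4a6b (r = 0.96, rho 0.90). For Dhx58 they were Parp9 (r = 0.98, rho 0.97), Ifih1 (r = 0.96, rho 0.97) and Txnl1 (r = 0.96, rho 0.95). For Ifih1 they were Parp12 (r = 0.97, rho 0.97), Dhx58 (r = 0.96, rho 0.97) and Il17ra (r = 0.96, rho 0.90). Dhx58 and Ifih1 thus stood on each other's list of 3. These correlations describe arrays that share their genotype groups and their array-wide level, and no test was made of them.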

How the data were processed

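The authors deposited log2 values per gene-level probe set, which per the labels are RMA (robust multi-array average) output of GeneSpring. Their probe annotation and software version are not given in the sources used here. That the values are log2 was read from their range. In the platform annotation, 14996 probe sets held 1 symbol, 1019 several and 7317 none. Linear models with 4 group means were fitted in limma 3.58.1 (R 4.3.3) to all 23332 probe sets on 12 arrays (8 residual and 2.66 prior degrees of freedom). Tests were two-sided, adjusted by Benjamini-Hochberg across the whole table in each comparison, with a threshold of 0.05. No label says that samples of a group came from separate animals, so p-values measure only the spread between these samples, and the number of arrays limits the precision.

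Alternatives were quantile normalization, a shift to 1 median, removal of dim probe sets (none of the group means over 6.35, the 40th percentile, leaving 15800 and all 9 sensor genes), probe sets with 1 symbol, trended and robust variance, array weights, a replicate block, each tissue alone and leaving out each array. Mb21d1 passed the removal of dim probe sets by its splenic means alone, 6.39 in Cre- and 6.51 in Cre+ DC. The sensor genes and lists were chosen with earlier results of these data known. From each list, genes called between genotypes and the 2 of smallest p per tissue were named, while genes called between tissues were so many that they are given as counts. The steps were run on simulated data whose noise was independent between probe sets and arrays. Such data hold no array-wide shift, so calls under such shifts were not checked. Summed marker levels are log2 of the sum of linear values. Same-numbered samples correlated in their deviations from group means by -0.08, -0.00 and -0.14 in spleen and 0.20, 0.00 and 0.31 in MLN. Differently numbered samples correlated by -0.05 to 0.13 in spleen and by -0.29 to 0.14 in MLN. In MLN the same-numbered 0.20 and 0.31 lay above all the differently numbered values. Whether the numbers mark pairs was not settled, and the main fit held no replicate block.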

Additional observations from a re-analysis of the deposited data

How the results depend on the processing

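Over all alternatives, 849 of the values of single sensor genes kept their direction and their side of the threshold, 14 came to pass it, 20 no longer passed and 35 changed sign. In spleen, where 2 sensor genes and 507 probe sets were called, the genes called numbered 4 with probe sets of 1 symbol, 6 with array weights, 0 with splenic arrays alone and 0 to 4 when 1 array was left out. The probe sets called numbered 286 after quantile normalization, 2747 with array weights, 18 with splenic arrays alone and 141 to 519 when 1 array was left out. In MLN, with 0 genes and 20 probe sets called, array weights called 2 genes and 966 probe sets. There quantile normalization called 53 probe sets, the dim filter 39, probe sets of 1 symbol 32, MLN arrays alone 0 and leaving out 1 array 0 to 42. For the difference of differences, 38 probe sets became 74 with the dim filter, 68 with 1 symbol, 1007 with array weights and 5 to 55 when 1 array was left out. With the replicate number as a replicate block, 281 probe sets were called in spleen, 0 in MLN and 10 for the difference of differences. Under it Zbp1 (adjusted p = 0.0491) and Dhx58 (0.0478) stayed called in limma, and Ifi205 (0.0520), Tnf (0.0571) and Casp4 (0.0642) did not. With splenic arrays alone these 3 partner genes were not called either (0.0952, 0.0994 and 0.0628).

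For the genotype differences, and for their difference between tissues, the sign changed for values near 0. In the MLN minus spleen comparisons it also changed for values further from 0. In Cre- mice, Mavs at -0.54, Tmem173 at -0.46 and Adar at -0.61 were called lower as deposited, and all of them were called higher after quantile normalization. Aim2 in spleen was 0.0047 after the shift to 1 median and ran from -0.11 to 0.10 when 1 array was left out, and Mb21d1 in spleen ran from -0.013 to 0.32. The Mavs difference in MLN was -0.014 after quantile normalization. The difference of differences was -0.11 for Mavs after quantile normalization, -0.072 after the shift and -0.10 to 0.14 when 1 array was left out. For Adar it was -0.047 and -0.054 in these scalings, -0.035 with array weights and -0.072 to 0.087 when 1 array was left out. Between tissues, quantile normalization gave positive values in Cre- mice for Ddx58 (0.17), Ifih1 (0.27), Mavs (0.49), Tmem173 (0.66), Zbp1 (0.66) and Adar (0.40). In Cre+ mice it did so for Mavs (0.39), Tmem173 (0.49), Zbp1 (0.19), Aim2 (0.031) and Adar (0.36), and 5 sensor genes were called in place of 9. The share of higher among called probe sets in MLN minus spleen was 34.9% as deposited, 53.6% after quantile normalization and 47.2% after the shift in Cre- mice, and 37.0%, 52.8% and 47.3% in Cre+ mice. For the genotype difference in MLN it was 85.0%, 73.6% and 75.0%, and for the difference of differences 84.2%, 74.1% and 71.7%. The cause of these changes was not tested, and some alternatives use fewer arrays or probe sets by construction.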
